A study of Mus musculus with 16 samples.

Results

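The 10 genes examined here were 5 transcription factors of the CREB family and 5 of their coactivators, among the 46078 genes counted in cultured cells labelled as juxtaglomerular (JG) cells and given miR-106b. They were taken by name from the count table, by a rule that uses no measured value but was set with earlier results of these data known: Creb1, Crem, Atf1, Creb5 and Creb3l1 on the side of the factors, and Crtc1, Crtc2, Crtc3, Crebbp and Ep300 on the side of the coactivators. JG cells are the renin-secreting cells of the kidney arterioles, and the cultured cells used were engineered to carry YFP driven by the renin promoter, so that YFP reports renin promoter activity. They received either miR-106b or a non-mammalian miRNA precursor as the control, and RNA was collected 48 h later. For each transfection, polyA RNA was sequenced from 4 cultures, and RNA that co-precipitated with Ago2 (Ago2-IP RNA), the protein that carries miRNAs to their mRNAs, from 4 other cultures. The question of the comparisons was how miR-106b changes the mRNA of regulators of renin transcription and its association with Ago2.

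CREB factors bind cAMP response elements in promoters. When cAMP rises, protein kinase A phosphorylates CREB, and phosphorylated CREB recruits the acetyltransferases CBP and p300. The CRTC proteins are held in the cytoplasm while phosphorylated by salt-inducible kinases (SIKs), and on dephosphorylation enter the nucleus and bind CREB. In JG cells cAMP and CREB are known to drive transcription of the renin gene.

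The 16 libraries held 2579086 to 9459585 counted reads, so that 3 reads, the limit that a count of 0 allows, corresponded to 0.317 to 1.16 CPM (counts scaled to library size). These limits cover counting error only, because reads carried no molecular identifiers and copies of 1 molecule are counted apart. The identity of the cells was checked against marker lists, with CPM scaled to library size. Ren1, the renin gene, was at 0 in all 16 libraries, and the 10 genes listed for JG and mural cells summed to 1774.65 to 2026.3 CPM in polyA control, 1384.42 to 1770.64 CPM in polyA miR-106b, 1052.28 to 1077.74 CPM in Ago2-IP control and 992.386 to 1087.66 CPM in Ago2-IP miR-106b libraries. In polyA RNA the sum of each miR-106b library was below that of each control library, while 6 of the 10 genes had a higher mean with miR-106b. All 20 genes of a cardiac muscle list were detected, with sums of 19682.7 to 28011.3 CPM in polyA control, 38367.3 to 66397.4 CPM in polyA miR-106b, 88970.2 to 95044.6 CPM in Ago2-IP control and 86570.4 to 95221.6 CPM in Ago2-IP miR-106b libraries. All 20 had a higher mean in polyA RNA with miR-106b, as did 9 of 9 endothelial genes (313.65 to 465.312 CPM in control, 589.482 to 1091.47 CPM with miR-106b) and 9 of 9 macrophage and blood genes (161.001 to 233.095 CPM in control, 327.344 to 509.512 CPM with miR-106b). In Ago2-IP control libraries the endothelial genes summed to 1437.22 to 1501.13 CPM and the macrophage and blood genes to 679.53 to 714.4 CPM. The kidney epithelium list, of 8 genes, summed to at most 27.2 CPM in any library. The values went against the label, since the defining transcript of JG cells was not detected and cardiac transcripts were abundant, and JG is used here as the label only. In bulk RNA, fewer cells of a type and less RNA per cell cannot be told apart, and the part of these transcripts in the results below was not tested.

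**Figure D1:**
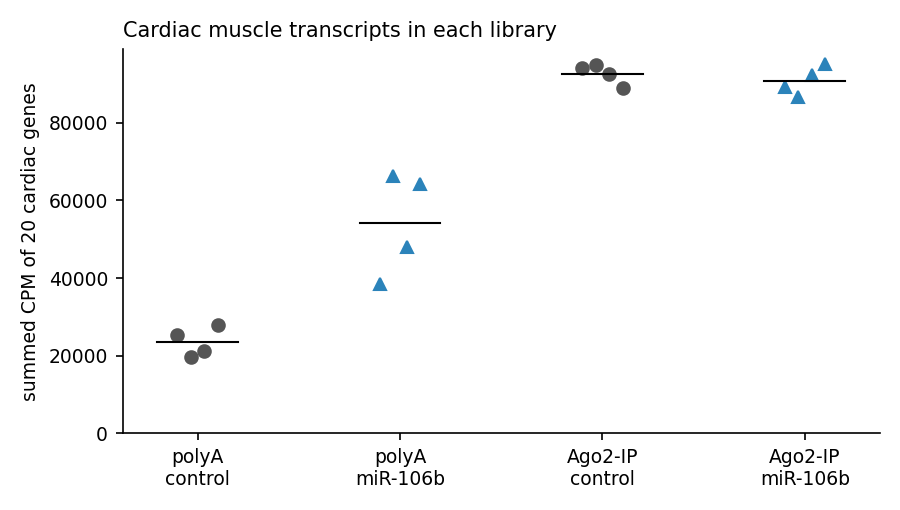
Summed CPM (scaled to library size) of 20 cardiac muscle genes in each of the 16 libraries, with a bar at each group mean. The polyA control libraries lie lowest, at 19682.7 to 28011.3, the polyA miR-106b libraries between 38367.3 and 66397.4, and both Ago2-IP groups above 86570.

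The mature miR-106b-5p and the places where the 3′UTRs of these genes match its seed are shown because a miRNA pairs with its targets mainly through that seed. The miRNA, of 21 bases, is encoded on the minus strand at chr5:138165787-138165807 (RefSeq, GRCm38.p6). Capitals mark the seed, bases 2 to 8:
miR-106b-5p: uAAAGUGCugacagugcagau
Matches were searched in the longest annotated 3′UTR of each gene on its own strand (GENCODE M21, GRCm38): GCACTTT (7mer-m8), CACTTTA (7mer-A1), or both overlapping as GCACTTTA (8mer). Matches were found in 3 of the 10 genes. Creb1 had 3 7mer-m8 matches (capitals), all on the plus strand of chromosome 1, at chr1:64599827-64599833, chr1:64600990-64600996 and chr1:64603167-64603173 in that order:
Creb1 site 1: tgcatatatatagtgGCACTTTtatc
Creb1 site 2: ggtttgctgtaacttGCACTTTtttt
Creb1 site 3: actgaattctttttaGCACTTTtttg
Creb5 had an 8mer at chr6:53698474-53698481 and a 7mer-A1 at chr6:53700004-53700010, plus strand:
Creb5 8mer: tatattttaaagttGCACTTTAcctc
Creb5 7mer-A1: aaaaaaaggtgccgtCACTTTAagtt
Ep300 had a single 7mer-A1 at chr15:81651388-81651394, plus strand:
Ep300 7mer-A1: tttccctattttcctCACTTTAtgaa
Of 13222 tested genes with an annotated 3′UTR, 22.2% held a match of any of these kinds and 14.8% an 8mer or 7mer-m8. Long 3′UTRs have more room for such matches, and those of Creb1 (7170 bases) and Creb5 (6289 bases) were longer than those of 98.7% and 97.9% of these genes. The 3′UTR of Ep300 had 1095 bases. Crtc1, Crtc3 and Crebbp had none in 3769, 3116 and 2720 bases. Crem, Atf1, Creb3l1 and Crtc2 had none in 1629, 1285, 643 and 425 bases. The counted span of Creb5 in the table ended at position 53696007, short of both of its matches, so reads from that end of the 3′UTR were not in its counts.

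**Figure D2:**
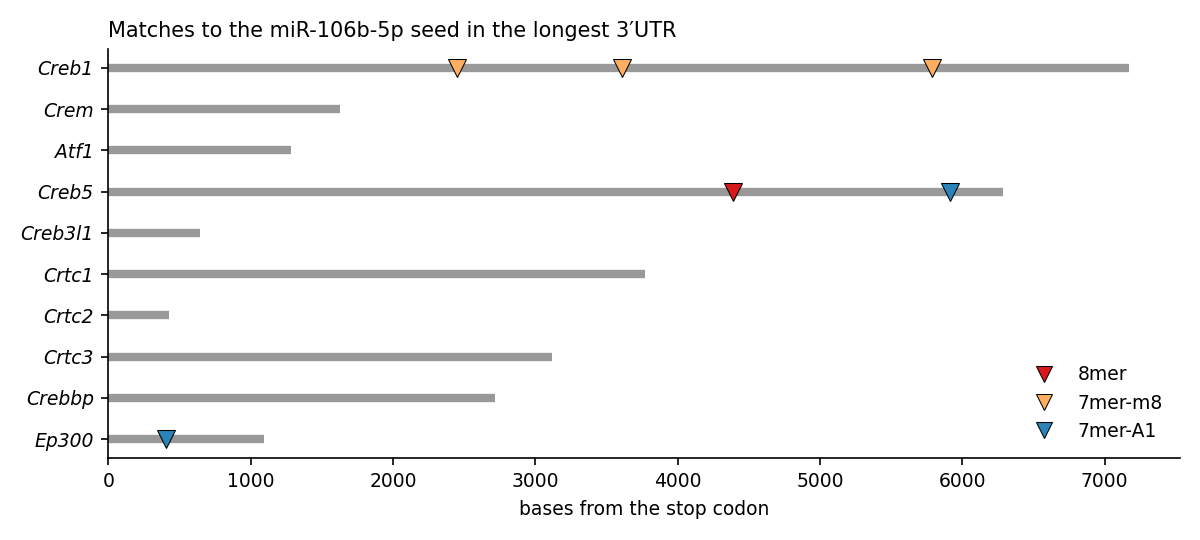
Matches to the miR-106b-5p seed (triangles, coloured by kind) along the longest annotated 3′UTR of each gene (bars, in bases from the stop codon). Creb1 carries 3 matches, Creb5 2 and Ep300 1, and the other 7 genes none.

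Levels in polyA control libraries were compared between genes per length, as CPM per kilobase of annotated exon. The order from the top was Creb3l1 (74.1 ± 9.09, SD, n = 4), Crtc2 (25.4 ± 1.89), Ep300 (18.8 ± 1.15), Crtc1 (11.5 ± 1.22), Atf1 (11.1 ± 0.761), Crebbp (10.3 ± 0.837), Crtc3 (7.98 ± 0.319), Creb1 (2.20 ± 0.139), Creb5 (1.14 ± 0.149) and Crem (0.705 ± 0.134). The ranges of Crtc1, Atf1 and Crebbp overlapped over the 4 libraries, and those of all other neighbours did not. The order rests on the lengths used. The annotated exons of Creb5 reach past the span counted in the table at both ends, so its level per kilobase is understated. Per kilobase of the longest coding transcript, a choice made after seeing the data, Crtc3 (15.4) moved above Atf1 (14.4) and Crebbp (12.9), and Creb1 (3.62) and Creb5 (3.59) came together with overlapping ranges. Under both lengths Creb3l1 was at the top and Crem at the bottom, and all 5 coactivators were above Creb1. Creb3l1 is an endoplasmic reticulum-resident factor that is cleaved to reach the nucleus and acts on secretory and matrix genes.

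In polyA RNA, Creb1 and Creb5 fell with miR-106b, and the other 8 genes did not pass the test. In all that follows, levels are CPM normalized by TMM within the RNA kind, a gene is called where its adjusted p is under 0.05, and adjusted p-values come from edgeR's quasi-likelihood test with Benjamini-Hochberg adjustment over the genes tested in the fit (14897 in polyA RNA), except where DESeq2 is named. All 10 genes passed the filter on low counts. The 2 called genes, both lower, stand against 40.5% of all tested genes called in this comparison, 19.0% higher and 21.5% lower. A count of 2 of 10 is not above the 40.5%. The split into higher and lower moved with the processing. Higher were 3163 of 5805 called genes with DESeq2 size factors and 2486 of 4126 without polyA control replicate 2, but 2771 of 6122 with library size only. The median log2 fold change of the 10 genes was -0.08, and that of all tested genes -0.05.

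Creb1, the cAMP-responsive activator that gives the family its name, lies on chromosome 1 from 64532645 to 64604548 (GRCm38; ENSMUSG00000025958). Its levels in replicates 1 to 4 were 28.3, 29.1, 32.4 and 31.3 CPM in control and 17.5, 19.8, 21.0 and 18.9 CPM with miR-106b. The groups did not overlap, and the highest miR-106b library was below the lowest control library by more than the spread within either group. The log2 fold change was -0.65 (SE 0.126, 95% interval -0.92 to -0.38, adjusted p = 0.00171, edgeR). It stayed called in all 14 alternative settings, between -0.69 and -0.52 (adjusted p from 0.000805 to 0.0206). The fall is one of mRNA only. The study reported more CREB and phospho-CREB protein in cells given miR-106b, which these RNA libraries do not measure.

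Creb5, a family member with a zinc finger beside its bZIP domain, lies on chromosome 6 from 53573384 to 53696007 (ENSMUSG00000053007). It was at 28.6, 33.4, 24.4 and 27.3 CPM in control and at 9.63, 19.8, 22.1 and 13.0 CPM with miR-106b. The groups did not overlap, but the miR-106b libraries spread widely, and replicates 1 and 4 were far below replicates 2 and 3. Its log2 fold change was -0.82 (SE 0.221, 95% interval -1.30 to -0.35, adjusted p = 0.0104, edgeR). Without polyA control replicate 2 it was -0.65 and no longer called (adjusted p = 0.0698), and without polyA miR-106b replicate 1 it was -0.54 (adjusted p = 0.0296, edgeR).

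Creb3l1 (ENSMUSG00000027230, chromosome 2 from 91982328 to 92024502) was at 179, 178, 186 and 228 CPM in control and at 417, 181, 191 and 293 CPM with miR-106b. The groups overlapped, with miR-106b replicates 2 and 3 inside the control range and replicate 1 far above it. That library also stood apart from its group over all genes, as described with the processing. The log2 fold change was 0.49 (SE 0.233, 95% interval -0.02 to 0.998, adjusted p = 0.115, edgeR). Without polyA miR-106b replicate 1 it was 0.27 (adjusted p = 0.149). It was called in 4 of 14 alternatives: without polyA miR-106b replicate 2 (0.64, adjusted p = 0.0352) or replicate 3 (0.63, adjusted p = 0.0393), without the filter on low counts (0.51, adjusted p = 0.00227), and with all 16 libraries in the fit (0.62, adjusted p = 0.0206, edgeR).

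Crem, whose products include the cAMP-induced repressor ICER, was at 4.59, 4.30, 2.9995 and 4.72 CPM in control and at 5.38, 4.82, 4.97 and 5.94 CPM with miR-106b. Each miR-106b library was above each control library. These levels rest on 4 to 41 reads per library over the series, and the fitted difference was 0.34 (95% interval -0.18 to 0.86, adjusted p = 0.285, edgeR). Crem lies on chromosome 18 from 3266048 to 3337748 (ENSMUSG00000063889), where its exons overlap Gm6225 on the opposite strand over 472 bases. The libraries kept no strand, so reads of the overlap cannot be assigned to either gene. Creb5 and Ep300 likewise overlap a small RNA gene each, Gm25818 and Gm23880.

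Atf1, which pairs with CREB and binds the same elements, had 31.0 to 36.6 CPM in control and 27.5 to 37.2 CPM with miR-106b. Its log2 difference was -0.11 (95% interval -0.38 to 0.17, adjusted p = 0.533, edgeR), an interval that leaves out a fall of the size measured for Creb1. Atf1 (ENSMUSG00000023027) lies on chromosome 15 from 100227819 to 100261244.

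The acetyltransferases CBP (Crebbp) and p300 (Ep300) are close paralogs. Ep300 (ENSMUSG00000055024, chromosome 15 from 81585351 to 81652072) was at 265, 254.5, 260 and 292 CPM in control and at 253.6, 218, 234 and 221 CPM with miR-106b. Each miR-106b library was below each control library, replicate 1 by the smallest margin, and the log2 difference was -0.21 (95% interval -0.43 to 0.01, adjusted p = 0.121, edgeR). Over the 14 alternatives this difference ran from -0.23 to -0.08, and none called it. Crebbp (ENSMUSG00000022521, chromosome 16 from 4081328 to 4213407) was at 153, 126, 138 and 142 CPM in control and at 141, 168, 155 and 158 CPM with miR-106b, with overlapping groups and a log2 difference of 0.16 (95% interval -0.07 to 0.38, adjusted p = 0.259, edgeR). Crebbp was called in 2 of 14 alternatives, without polyA miR-106b replicate 1 (0.28, adjusted p = 0.0334) and with all 16 libraries in the fit (0.28, adjusted p = 0.0106, edgeR). As a share of CPM per kilobase of the pair, Crebbp made up 35.4% ± 1.81 in polyA control and 41.5% ± 3.34 with miR-106b (SD, n = 4 each), with overlapping ranges.

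None of the 3 genes of the CRTC coactivators, which bind the bZIP domain of CREB, was called. Crtc1 (ENSMUSG00000003575, chromosome 8 from 70382355 to 70439579) ranged from 117 to 148 CPM in control and from 101 to 139 CPM with miR-106b, with a log2 difference of -0.13 (95% interval -0.40 to 0.13, adjusted p = 0.409, edgeR). Its difference ran from -0.16 to -0.008 over the 14 alternatives. Crtc2 (ENSMUSG00000027936, chromosome 3 from 90254163 to 90264125) ranged from 95.2 to 112 CPM and from 92.2 to 110 CPM, with an interval of -0.29 to 0.18 (adjusted p = 0.715, edgeR). Crtc3 (ENSMUSG00000030527, chromosome 7 from 80586627 to 80688877) ranged from 74.8 to 81.6 CPM and from 72.8 to 90.3 CPM, with an interval of -0.23 to 0.23 (adjusted p = 0.993, edgeR). Per kilobase, Crtc2 made up the largest share of the 3, at 56.6% ± 0.748 in control and 57.1% ± 2.15 with miR-106b.

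The miR-106b and control libraries of polyA RNA did not overlap for 4 of the 10 genes (Creb1, Crem, Creb5 and Ep300; exact permutation test, two-sided, p = 0.0286 each, the smallest that 70 relabellings of 4 against 4 libraries allow). Groups that do not overlap made up 38.3% of all tested genes, so this count is near the background. The cardiac, endothelial and blood lists above were higher in these same miR-106b libraries, and their part in the 4 differences was not tested.

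**Figure D3:**
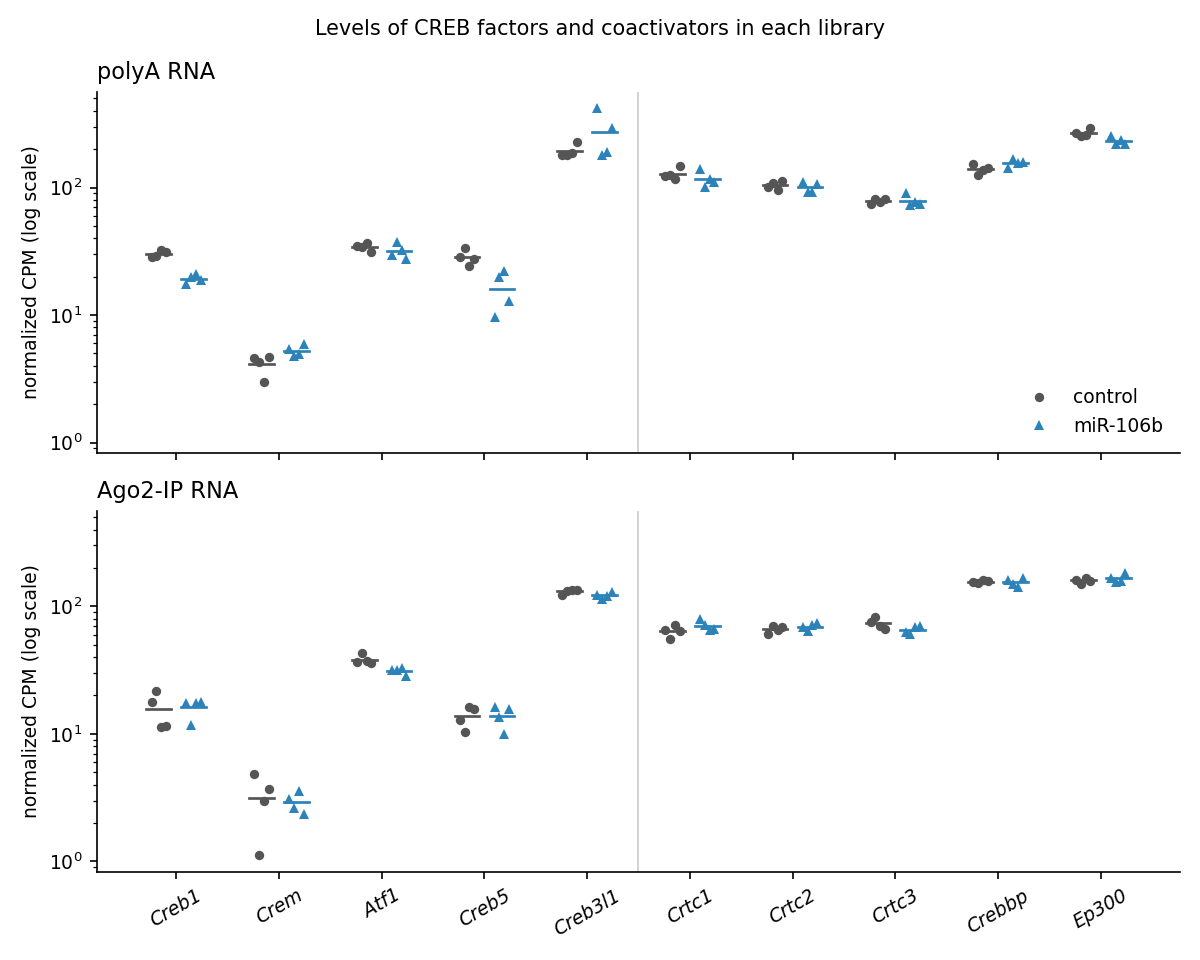
Normalized CPM (log scale) of the 10 genes in each library, for polyA RNA (top) and Ago2-IP RNA (bottom), with circles for control, triangles for miR-106b and a bar at each mean of 4 libraries. CPM are scaled within each panel and are not to be compared between them. In polyA RNA the miR-106b libraries of Creb1 (17.5 to 21.0) lie below the control libraries (28.3 to 32.4), while in Ago2-IP RNA its groups overlap.

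In Ago2-IP RNA, none of the 10 genes was called, as was none of 14893 tested genes (0% of the background) in edgeR's test, where 826 genes had an unadjusted p under 0.05 and DESeq2's Wald test called 2. Creb1 was at 17.7, 21.6, 11.3 and 11.6 CPM in control and at 17.5, 11.7, 17.4 and 17.8 CPM with miR-106b. The ranges of the groups overlapped, and the control libraries fell into a higher and a lower pair. The log2 difference was 0.06 (95% interval -0.32 to 0.44, adjusted p = 0.993, edgeR), so a rise or fall as large as 0.65 was outside the interval of this fit. Without Ago2-IP control replicate 2 the difference was 0.25 (SE 0.201), and no interval is given for that fit. Creb5 was at 12.8, 10.4, 16.2 and 15.8 CPM in control and at 16.3, 13.5, 10.02 and 15.7 CPM with miR-106b, with overlapping groups and an interval of -0.42 to 0.42.

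Atf1 was the one gene of the 10 whose Ago2-IP groups did not overlap, against 3.24% of tested genes. It was at 36.8, 42.8, 37.4 and 35.7 CPM in control and at 31.8, 31.6, 33.0 and 28.6 CPM with miR-106b. Every miR-106b library was lower, with a log2 difference of -0.29 (SE 0.117, 95% interval -0.52 to -0.06, exact permutation test, two-sided, p = 0.0286). Over all tested genes its adjusted p was 0.778 in edgeR's test, and the adjusted p lay between 0.483 and 1 over the alternatives. Its 3′UTR held no seed match. Intervals of the other 7 genes included 0, and were narrowest for Ep300 (-0.07 to 0.17) and Crebbp (-0.13 to 0.10) and widest for Crem (-0.98 to 0.71).

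The change of the Ago2:polyA ratio, which compares the Ago2-IP change with the polyA change in 1 fit of 16 libraries, was called for none of the 10 genes, against 27.3% of tested genes (7.61% higher, 19.7% lower). This comparison uses the polyA libraries already described, so it is no second measurement of their change. Creb1 had a ratio change of 0.56 on the log2 scale (95% interval 0.02 to 1.10, adjusted p = 0.115, edgeR) and Creb5 of 0.68 (95% interval 0.05 to 1.31, adjusted p = 0.104). Neither had a higher Ago2-IP level with miR-106b beyond the spread, as given above. On the other side were Creb3l1 (-0.74, 95% interval -1.35 to -0.13, adjusted p = 0.0698), Crebbp (-0.32, -0.57 to -0.06, adjusted p = 0.0577) and Crtc3 (-0.31, -0.61 to -0.02, adjusted p = 0.107, edgeR). Over the 22 alternatives Creb3l1 ran from -0.87 to -0.43, Crebbp from -0.36 to -0.15 and Crtc3 from -0.36 to -0.14. Creb1 ran from 0.43 to 0.76 and Creb5 from 0.48 to 0.89. With libraries scaled to library size only, Creb1 (0.73, adjusted p = 0.0382) and Creb5 (0.84, adjusted p = 0.0496, edgeR) were called, and 46.5% of all called genes were higher, against 27.9% with TMM. The median of all tested genes moved with that scaling from -0.07 to 0.10, so that values of Creb1 and Creb5 relative to it changed less. Both were also called with TMM within each RNA kind (0.71 and 0.82) and without the filter (0.71 and 0.82). Creb3l1 was called, lower, without the filter (-0.59, adjusted p = 0.0153, edgeR) and with DESeq2's Wald test (-0.68, adjusted p = 0.0458). Leaving out 1 library gave 0 to 2 calls, with 22.4% to 32.3% of all tested genes called in those fits. They were Creb1 without Ago2-IP control replicate 2 (0.76), Creb5 and Creb3l1 without polyA miR-106b replicate 2 or 3, and Crebbp without polyA control replicate 1, polyA miR-106b replicate 1 or Ago2-IP miR-106b replicate 4.

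**Figure D4:**
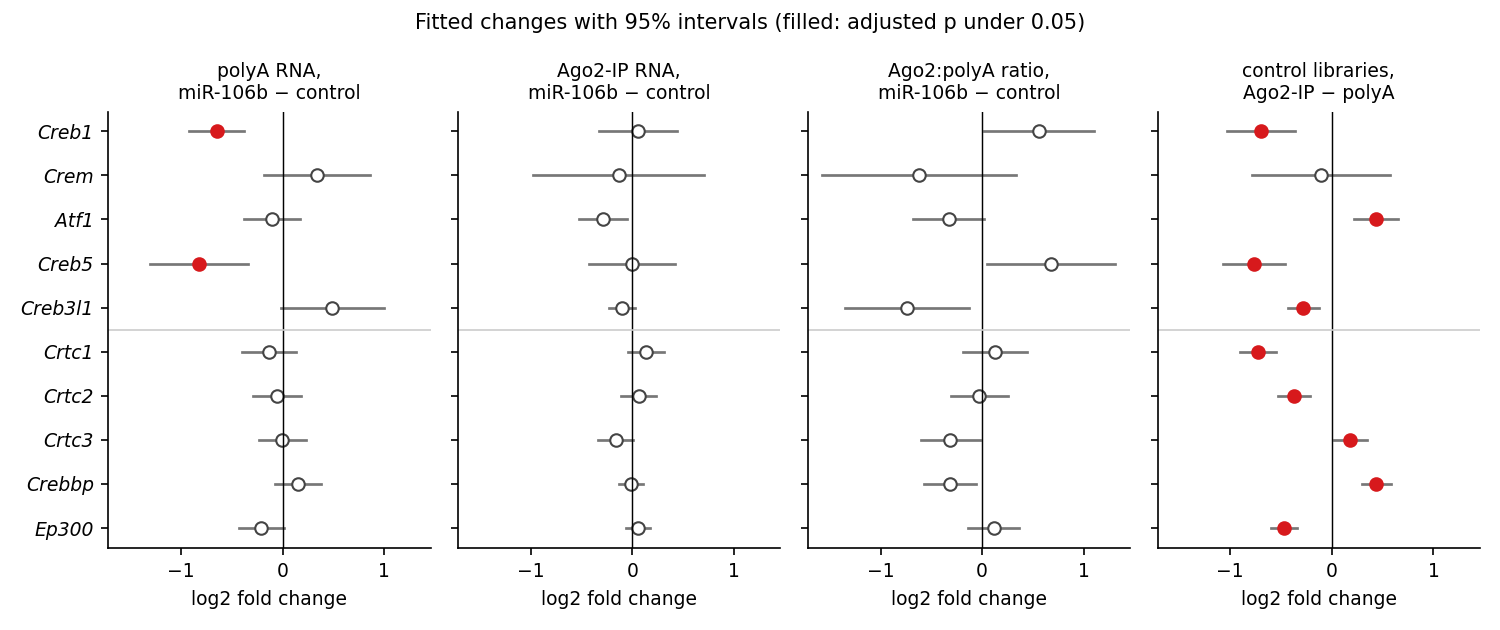
Fitted log2 fold changes of the 10 genes with 95% intervals in 4 comparisons, filled where the adjusted p is under 0.05. Creb1 and Creb5 are the filled points for polyA RNA, no gene is filled for Ago2-IP RNA or the ratio, and 9 of 10 are filled between the RNA kinds of the control libraries.

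Between the RNA kinds of control-transfected cells, 9 of the 10 genes differed, against 73.3% of tested genes (35.4% higher in Ago2-IP RNA, 37.9% lower). Lower in Ago2-IP RNA were Creb5 (log2 difference -0.77, adjusted p = 6.56e-05), Crtc1 (-0.73, adjusted p = 4.62e-08), Creb1 (-0.70, adjusted p = 0.000535), Ep300 (-0.47, adjusted p = 4.65e-07), Crtc2 (-0.37, adjusted p = 0.000152) and Creb3l1 (-0.28, adjusted p = 0.00201, edgeR). Higher were Crebbp (0.44, adjusted p = 3.13e-06), Atf1 (0.44, adjusted p = 0.000738) and Crtc3 (0.18, adjusted p = 0.0434, edgeR). Crem did not pass (-0.11, 95% interval -0.78 to 0.57). The call of Creb3l1 was lost with all 16 libraries in the fit (-0.25, adjusted p = 0.277, edgeR). That of Crtc3 held in 5 of 14 alternatives. It was lost without the filter (0.09, adjusted p = 0.409), with all 16 libraries (0.21, adjusted p = 0.0564), with a replicate block (0.18, adjusted p = 0.0512), with library size only, and without polyA control replicate 1 (0.15), 2 (0.19) or 3 (0.16) or Ago2-IP control replicate 1 (0.17) or 2 (0.12, adjusted p = 0.194, edgeR).

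The paralogs Crebbp and Ep300 differed in opposite directions. With libraries of both kinds scaled together, Ep300 was at 244 ± 13.6 CPM in polyA and 176 ± 7.61 CPM in Ago2-IP RNA, and Crebbp at 127 ± 9.92 and 172 ± 3.44 CPM (SD, n = 4 each). Crebbp was 50.8% ± 0.618 of the pair per kilobase in Ago2-IP control libraries, where each library (50.04% to 51.5%) was above each polyA control library (33.9% to 37.8%). Crtc1 was at 117 ± 11.7 and 70.7 ± 7.17 CPM, and Crtc3 at 71.7 ± 2.87 and 81.7 ± 8.18 CPM in polyA and Ago2-IP RNA. With library size only, which moved the median of all tested genes from -0.06 to -0.35 and the share of higher calls from 48.3% to 37.6%, the difference of Crtc3 turned to -0.11 and that of Atf1 was not called (0.15, adjusted p = 0.2001, edgeR). Crebbp dropped to 0.15 (adjusted p = 0.0468), and Ep300 (-0.76), Crtc2 (-0.66) and Creb3l1 (-0.57) were farther below 0. The cardiac, endothelial, and macrophage and blood lists were higher, and the JG and mural list lower, in each Ago2-IP control library than in any polyA control library, in cultures other than those of the polyA RNA, and their part in these differences was not tested.

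Among 10949 tested genes averaging 5 CPM or more, the 3 whose profile over the 16 libraries lay nearest to that of Creb1 were 6030458C11Rik, Gmeb1 and Polr1b, with root mean square differences of centred log2 CPM of 0.154, 0.196 and 0.202. The median over all ranked genes was 0.521. Gmeb1, a factor that binds glucocorticoid modulatory elements, went from 33.6 ± 2.44 to 23.4 ± 3.20 CPM in polyA RNA. It was picked for its likeness to Creb1 in these libraries, so this fall is no separate result. Of the other 9 genes, Ep300 was nearest, at 0.299.

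Other genes of the pathway were taken from 3 lists, each with counts over genes called in polyA RNA, which are read against the 40.5% of all tested genes called there (19.0% higher, 21.5% lower) and their median of -0.05. The 3 counts were not tested against that background, and its split into higher and lower moved with the processing, as given above. The cardiac, endothelial, and macrophage and blood lists were higher in these same miR-106b libraries. Their part in the changes of these 3 lists was not tested. Of 13 other CREB and ATF factors, 12 were tested and 4 called, all lower (median log2 fold change -0.07). Atf4, the factor of the integrated stress response, fell from 224 ± 16.2 to 153 ± 21.3 CPM (log2 fold change -0.55, adjusted p = 0.00317, edgeR). Crebzf, a bZIP cofactor, fell from 78.4 ± 4.96 to 54.2 ± 6.88 CPM (-0.53, adjusted p = 0.00333). The count was 2 without polyA control replicate 1, 2 or 3, or without miR-106b replicate 2, where 30.7%, 27.7%, 28.8% and 33.9% of all tested genes were called. Atf4 and Crebzf were called in all 14 alternatives.

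Of 27 kinases, phosphatases and other regulators of CREB and CRTC proteins, 12 were called, 5 higher and 7 lower (median -0.14). The catalytic subunits of AMP-activated kinase, which phosphorylates CRTC proteins, moved apart. Prkaa2 rose from 21.8 ± 5.53 to 48.5 ± 12.2 CPM (1.16, adjusted p = 0.00103), and Prkaa1 fell from 52.0 ± 5.21 to 28.2 ± 8.03 CPM (-0.87, adjusted p = 0.00256, edgeR). Sik1, a CRTC kinase whose gene is itself induced by CREB, rose from 43.8 ± 4.51 to 75.2 ± 16.5 CPM (0.78, adjusted p = 0.0022), and Rps6ka4, the CREB kinase MSK2, fell from 194 ± 19.3 to 110 ± 16.8 CPM (-0.82, adjusted p = 0.000685, edgeR). Sik2 and Sik3 were not called (-0.16 and 0.10). Without polyA control replicate 2 the count was 7, with 27.7% of all tested genes called.

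Of 25 CREB target genes, 24 were tested and 9 called, 4 higher and 5 lower (median -0.21). Ppargc1a, a transcriptional coactivator of oxidative metabolism, rose by 1.21 (adjusted p = 0.00225, edgeR). Rgs2, a regulator of G protein signalling, rose from 5.21 ± 0.612 to 11.1 ± 4.22 CPM (1.05, adjusted p = 0.00651). Nr4a2, an orphan nuclear receptor induced at once by cAMP, fell from 27.5 ± 2.05 to 12.8 ± 3.22 CPM (-1.08, adjusted p = 0.000747), and Klf4, a zinc finger factor, from 202 ± 18.4 to 120 ± 19.9 CPM (-0.76, adjusted p = 0.000988, edgeR). Without polyA control replicate 2 the count was 5, beside the same 27.7%. In Ago2-IP RNA no gene of the 3 lists was called in edgeR's test. With an unadjusted p under 0.05 there were 0 of the other factors, 2 of the regulators and 3 of the targets, beside 826 of all 14893 tested genes. Of the 12, 27 and 24 tested genes of these lists, 1, 8 and 6 were called for the ratio, against 27.3% of all tested genes, and 11, 21 and 22 between RNA kinds, against 73.3%.

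**Figure D5:**
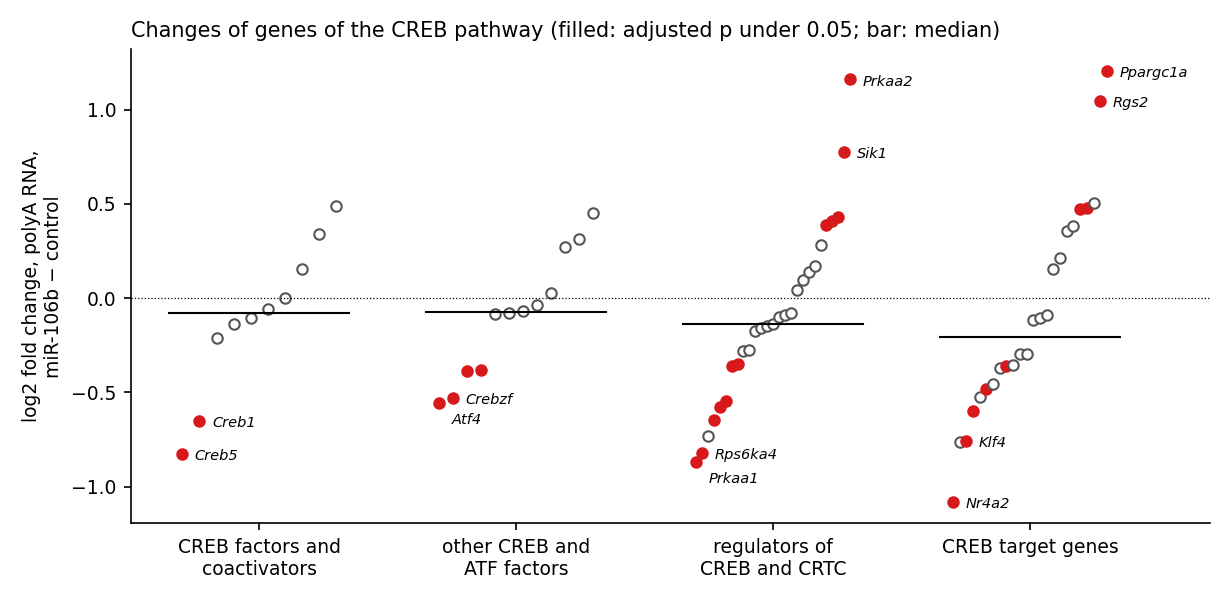
Log2 fold changes in polyA RNA (miR-106b against control) of each tested gene in 4 groups, ordered by value within a group, filled where the adjusted p is under 0.05, with a bar at the median. Creb1 and Creb5 are the called genes of the first group, all 4 called genes of the second are lower, and called genes of the regulators and targets lie on both sides of 0.

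For all tested genes with an 8mer or 7mer-m8 match, the median polyA log2 fold change was -0.12 and 25.3% were called lower, against -0.03 and 22.8% of genes with no match. Among genes with a 3′UTR of at least 6000 bases, to which Creb1 and Creb5 belong, the values were -0.24 and 33.5% with a match (n = 179) and -0.09 and 24.8% without (n = 101). In Ago2-IP RNA the medians were 0.004 with and -0.008 without a match, and no gene was called. Among the long 3′UTRs they were 0.046 and 0.008. These values are a description with no test.

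The promoters of the 10 genes were searched for the element that CREB itself binds, the full cAMP response element TGACGTCA (a palindrome) and its shorter forms TGACG and CGTCA, both of which the full element contains, on either strand. Promoters of 250 bases before to 50 bases after the start (RefSeq, GRCm38.p6) were found for 7 of the 10 genes. Creb5 alone of the 7 held the full element, 45 bases before a start, as did 1.79% of 32851 promoters. It is shown because Creb5 fell in polyA RNA, with capitals for the element, on the plus strand at chr6:53287248-53287275:
Creb5 promoter: gaatcccacgTGACGTCAccgggggggt
This start lies outside the span counted for Creb5 in the table. A shorter form was present in the promoters of Creb5 and Atf1, against 20.8% of all promoters and 58.1% of the 31 promoters of the CREB target list. A match is a description of the letters only, and binding was not measured in these libraries.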

How the data were processed

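Counts per gene and library were taken as the authors deposited them, whole numbers with no normalization. Per the labels, libraries were single-end and not strand-specific; the submitters' processing notes name Bowtie2, TopHat2 (2.0.10, where the study's methods name another version), HTSeq, DESeq, edgeR and GRCm38. How reads shared by overlapping genes or paralogs were counted is not given in the sources used here. Genes with at least 1 CPM in at least 3 of 4 libraries of any group were tested (14897 of 46078). Libraries were scaled by TMM, and groups compared with edgeR 4.0.16 (quasi-likelihood F test, robust, two-sided, prior count 0.125) in R 4.3.3, with Benjamini-Hochberg adjustment and a threshold of 0.05. The 2 transfections of each RNA kind, and the control libraries of both kinds, were fitted on their 8 libraries, and the ratio as the interaction over 16. DESeq2 1.42.0, limma 3.58.1, Python 3.11.15, numpy 2.4.6, pandas 2.3.3, scipy 1.17.1 and matplotlib 3.10.9 were also used, and the tests were checked on simulated counts.

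The 10 genes and all lists were chosen with earlier results of these data known. Named from each list were up to 2 genes with the largest rise and 2 with the largest fall among those called in polyA RNA, and for Creb1 the 3 nearest profiles. Cop1 was matched by its older symbol, Rfwd2. Same-numbered replicates showed correlations of their deviations from -0.44 to 0.30, and differently numbered ones were not compared. The numbers were not taken to pair libraries. Cultures are described as replicates, and p-values measure the spread between these libraries. No pair of replicates agreed within sampling noise (chi-square per degree of freedom 1.72 to 29.1). PolyA miR-106b replicate 1, highest of its group for Creb3l1 and lowest for Creb5, gave 29.1, 19.5 and 19.4 against replicates 2, 3 and 4. The other pairs of that group gave 6.49 to 12.7. The alternatives were other scalings, no filter, DESeq2's test, a replicate block, all 16 libraries in 1 fit and leaving out each library. Protein sequences were not used here.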

Additional observations from a re-analysis of the deposited data

Results flagged for a closer look

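In each of the 40 sets of 4 libraries (10 genes in 4 groups), the gap of the farthest library to its nearest neighbour was divided by the range of the set. Chance passes Dixon's 95% limit in about 1 in 20 sets, and 2 of 40 passed, the number chance gives. Creb1 was at 11.7 CPM in Ago2-IP miR-106b replicate 2, where the gap was 0.945 of the range and the other libraries of the group lay between 17.4 and 17.8 CPM. Creb3l1 was at 228 CPM in polyA control replicate 4, where the gap was 0.856 of the range. Without that library its polyA log2 fold change was 0.58 (adjusted p = 0.0988, edgeR), against 0.49 with it.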

How the results depend on the processing

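Leaving out 1 library gave 1 to 3 called genes of the 10 in polyA RNA (27.7% to 45% of all tested genes), 0 to 40 called genes of all tested in Ago2-IP RNA (40 without Ago2-IP miR-106b replicate 4, 8 without control replicate 4, 4 without miR-106b replicate 1) and 0 to 2 of the 10 for the ratio (22.4% to 32.3%). With all 16 libraries in 1 fit, 4 of the 10 were called in polyA RNA (Creb3l1 and Crebbp beside Creb1 and Creb5; 41.9% of all tested genes), and 61.4% of 6237 called genes were higher, against 47.0% of 6034. In Ago2-IP RNA, all genes called numbered 20 without the filter, 2 with DESeq2's Wald test and 1 with a replicate block. For the ratio, 2 of the 10 were called with library size only (28.9% of all tested genes), 3 without the filter (12.4%), 1 with DESeq2's test (30.5%) and 2 with TMM within each RNA kind (28.9%). Replicate numbers were not taken to pair libraries in the main fits. With a replicate block, 5511 genes and 2 of the 10 were called in polyA RNA, 3896 and 0 for the ratio, and 10648 and 8 between RNA kinds, where Crtc3 was lost (adjusted p = 0.0512, edgeR). The calls of the other 9 in those comparisons did not change with the block. Differences that were near 0 changed sign. In polyA RNA, Crtc3 was 0.066 with DESeq2 size factors, 0.017 without the filter, 0.068 with DESeq2's test and 0.13 in the fit of 16, Crtc2 was 0.011, 0.012 and 0.071 with DESeq2 size factors, DESeq2's test and the fit of 16, and Atf1 was 0.019 in the fit of 16. Without 1 library they ranged from 0.0025 to 0.10 (Crtc3), -0.082 to 0.050 (Crtc2) and -0.19 to 0.016 (Atf1). In Ago2-IP RNA, Creb5 was -0.00039 with library size only, -0.015 without the filter and -0.019 in the fit of 16, and without 1 library the ranges were -0.12 to 0.13 (Creb5), -0.068 to 0.25 (Creb1), -0.41 to 0.12 (Crem) and -0.052 to 0.023 (Crebbp). For the ratio, Crtc2 was 0.14 with library size only, 0.024 with DESeq2 size factors, 0.12 without the filter, 0.023 with DESeq2's test and 0.12 with TMM within each RNA kind, and -0.071 to 0.034 without 1 library. Between RNA kinds, Crtc3 was -0.11 with library size only, and Crem -0.36 to 0.15 without 1 library. The causes were not tested. Depth limits Crem most, at 4 to 41 reads per library.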
